A study of Mus musculus with 9 samples.

Results

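Semaphorins are secreted or membrane-bound guidance proteins, and plexins and neuropilins are their receptors. Plexins are the signalling receptors: their cytoplasmic part acts on small GTPases and so on the cytoskeleton. Most secreted class 3 semaphorins bind a neuropilin that holds them to a plexin A protein, whereas membrane-bound semaphorins of classes 4 to 7 bind plexins directly. In the developing brain the system steers growing axons and migrating neurons, and it also acts on blood vessels.

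The family was taken as every gene whose symbol names a semaphorin of classes 3 to 7, a plexin of types A to D, or a neuropilin. This gave 31 of 38195 genes: 20 semaphorins (7 of class 3, 6 of class 4, 2 of class 5, 4 of class 6 and 1 of class 7), 9 plexins (4 of type A, 3 of type B, 1 of type C and 1 of type D) and 2 neuropilins. Their RNA was measured in hypothalamus from E12.5 embryos of the outbred mouse strain CD-1, that is, at mid-gestation while hypothalamic neurons are being born. The zones were cut by hand from coronal slices, 3 libraries each: the ventricular zone (VZ), which lines the ventricle and holds the dividing progenitors, the medial mantle zone (mMZ) beside it, and the lateral mantle zone (lMZ), where young neurons gather. All animals had the same strain and stage, and the labels name no mutation or treatment in any group. No label ties a library to an embryo or litter, so the 3 libraries of a zone may or may not be separate animals, and p-values reflect variation among libraries that can be technical.

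Markers followed the zone labels in part, with mMZ closer to VZ than to lMZ in progenitor markers. Over 9 radial glia markers the summed level was 929 to 1933 FPKM in VZ, 899 to 1087 FPKM in mMZ and 86.6 to 121 FPKM in lMZ. Over 8 neuronal markers it was 533 to 1151 FPKM in VZ, 1131 to 1327 FPKM in mMZ and 1482 to 1713 FPKM in lMZ. In radial glia markers mMZ thus overlapped only the low end of VZ, and mMZ library 2 (899 FPKM) lay just below it. Over 6 dividing cell markers the sum was 188 to 667 FPKM in VZ and 129 to 271 FPKM in mMZ. In lMZ it was 8.09 to 19.3 FPKM. Between mMZ and lMZ 8 of 9 radial glia and all 6 dividing cell markers passed as higher in mMZ (limma, adjusted p under 0.05). Over all genes 3.58% did so. None of either list passed between VZ and mMZ, where no gene did. VZ library 2 had the lowest progenitor sum and the highest neuronal sum of its zone. The libraries are unequal in depth: 7 correspond to between 4412880 and 8820000 fragments, whereas VZ library 3 corresponds to 261427 and mMZ library 3 to 539660. VZ library 3 listed 6 semaphorins and 2 receptors at 0, and mMZ library 3 listed 3 semaphorins and 1 receptor at 0. A 0 in these 2 libraries is given as listed and not as absence.

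Most of the family was detected. Of the 31 genes, 28 (18 semaphorins and 10 receptors) reached at least 1 FPKM in at least 3 libraries and were tested. Semaphorin 3D, semaphorin 3E and plexin B3 did not: Sema3d ranged from 0 to 1.13 FPKM, Sema3e from 0 to 0.690 FPKM and Plxnb3 from 0 to 0.1502 FPKM over the 9 libraries. A mean of at least 10 FPKM over all libraries was reached by 9 semaphorins and 6 receptors. Levels are per length of transcript, so genes can be set side by side, but they are RNA levels of mixed tissue. In such bulk samples fewer cells of a type and less RNA per cell cannot be told apart.

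**Figure D1:**
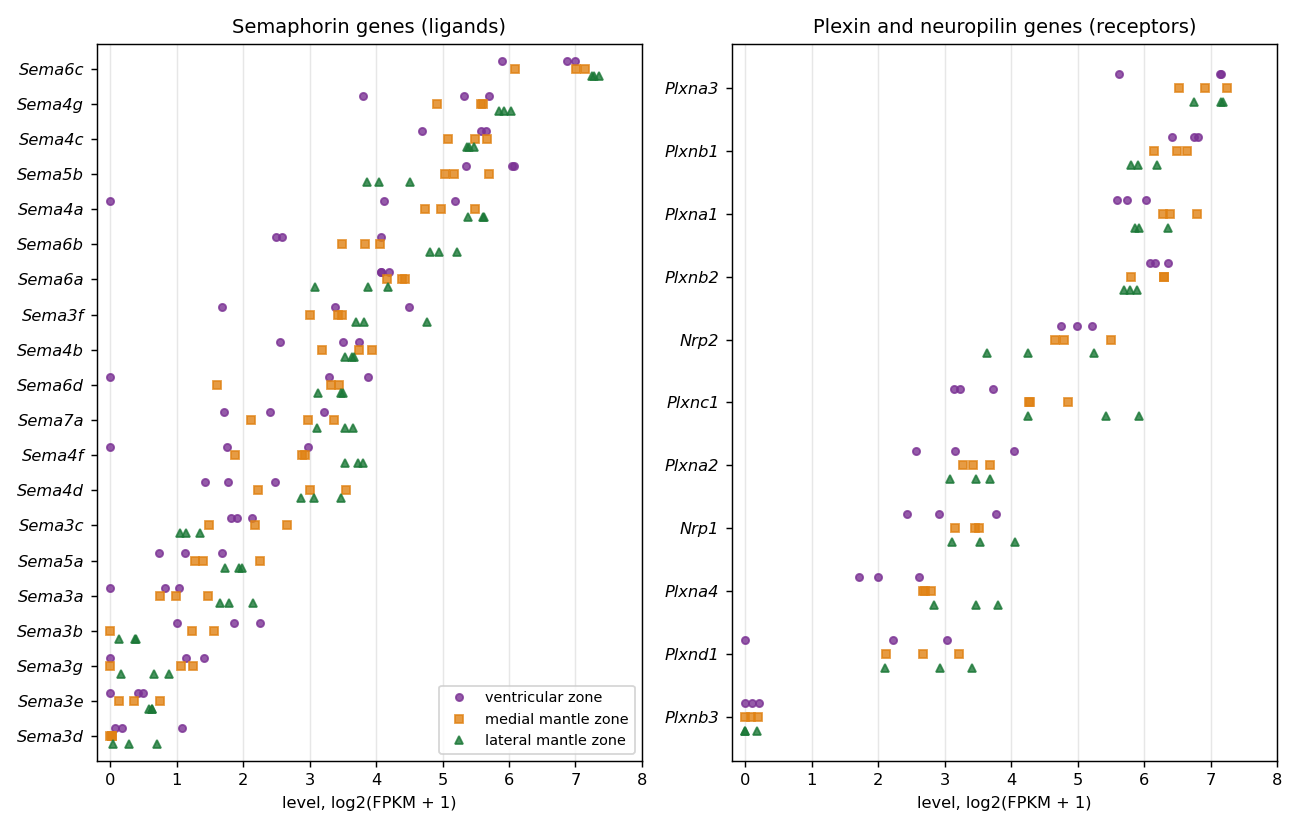
Level of each family gene in each of the 9 libraries, as log2(FPKM + 1), with semaphorins on the left and plexins and neuropilins on the right, ordered by mean level. Each symbol is 1 library, coloured by zone. Sema6c and Plxna3 head the panels with means of 123 and 120.2 FPKM, and Sema3d and Plxnb3 lie at the foot.

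The most abundant ligand was Sema6c, a transmembrane class 6 semaphorin. It measured 116, 127 and 58.8 FPKM in VZ, 139.8, 128 and 67.0 FPKM in mMZ, and 154, 151 and 163 FPKM in lMZ. In deposited FPKM all 3 lMZ libraries lay above the other 6, and the lowest values fell in the 2 shallow libraries. Sema6c alone made up 23.8% to 37.0% of the summed semaphorin level of a library. Among the receptors Plxna3, a plexin A that with neuropilins forms receptors for class 3 semaphorins, was the highest on average, with 142, 139.6 and 47.9 FPKM in VZ, 119, 151 and 90.7 FPKM in mMZ, and 107, 141 and 144 FPKM in lMZ. Its zones overlapped in all comparisons. Neither gene passed the test in any comparison of zones. The difference between VZ and lMZ was −0.70 for Sema6c (95% confidence interval −1.44 to 0.03) and −0.39 for Plxna3 (−1.25 to 0.47), both on the log2(FPKM + 1) scale on which all differences here are given.

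The comparison of VZ with lMZ asks how ligand and receptor RNA differs between the progenitor layer and the outermost neurons. Sema5b and Plxnb1 were higher in VZ, and Sema6b, Sema4f, Sema3a, Plxnc1 and Plxna4 were lower in VZ. That is 7 of the 28 tested members, 2 higher and 5 lower (limma, adjusted p under 0.05). Over all genes tested 19.6% passed, 10.7% as higher and 8.93% as lower in VZ, so the family's share of passing genes was close to the background. Its median difference was −0.62, with 20 of 28 members negative, whereas the median over all genes was 0.05. Without the shallow VZ library 3 it was −0.17, with 16 of 28 negative, beside 0.05 for all genes. Among semaphorins 1 was higher and 3 were lower of 18 tested, with a median of −0.80 (−0.26 without VZ library 3). Among receptors 1 was higher and 2 were lower of 10, with a median of −0.33 (−0.17 without it). All VZ libraries lay above all lMZ libraries in 5 tested members, where 25.2% of all genes did so, and below them in 10, where 19.9% did.

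**Figure D2:**
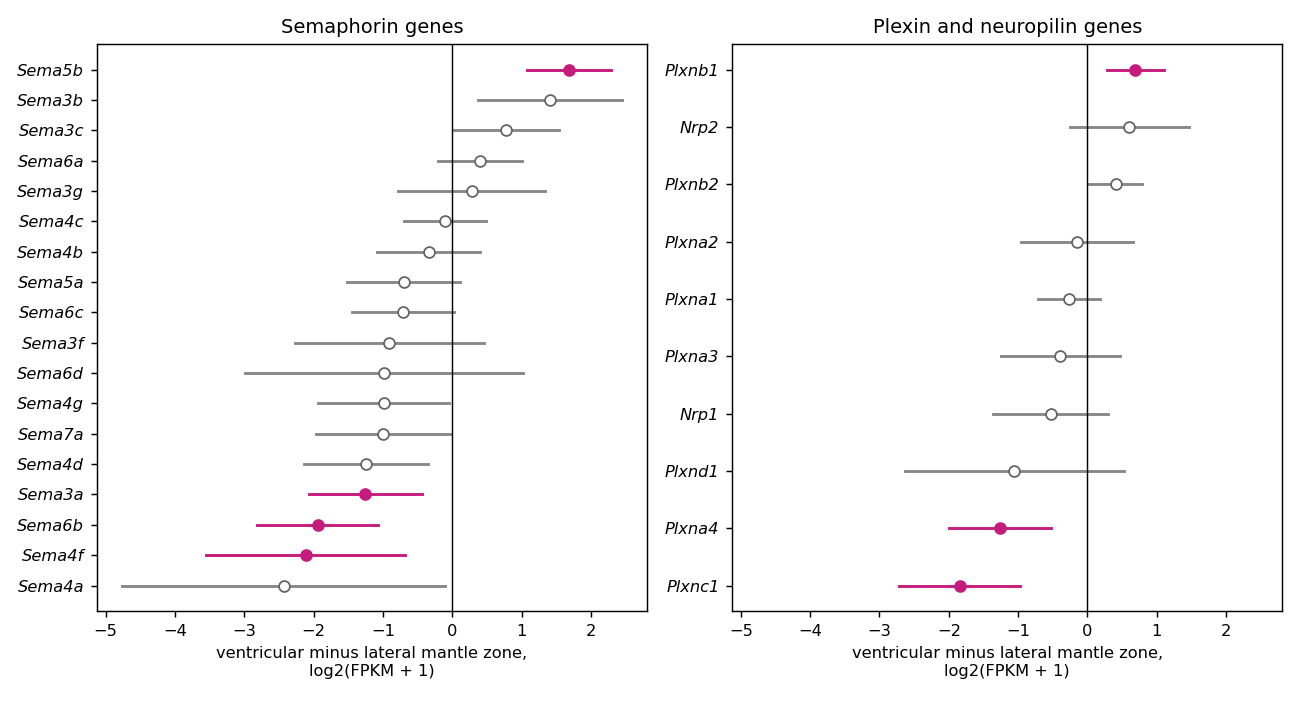
Difference between the ventricular and the lateral mantle zone for the 28 tested members, as log2(FPKM + 1), with 95% confidence intervals from the fit to 9 libraries. Filled points passed the adjusted threshold (7 members, from −2.11 for Sema4f to 1.69 for Sema5b), and open points did not.

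Sema5b, a transmembrane semaphorin with thrombospondin repeats that repels growing axons, was the member with the clearest zone pattern. Its levels were 64.9, 39.8 and 66.5 FPKM in VZ, 35.1, 31.7 and 51.05 FPKM in mMZ, and 21.7, 13.5 and 15.5 FPKM in lMZ. Every VZ and every mMZ library exceeded every lMZ library, whereas VZ library 2 and mMZ library 3 overlapped across the inner zones. The difference between VZ and lMZ was 1.69 ± 0.27 (SE; limma, adjusted p = 0.00415). Its class 5 relative Sema5a was low, with 0.673 to 2.22 FPKM in VZ, 1.43 to 3.76 FPKM in mMZ and 2.33 to 2.96 FPKM in lMZ, and its difference between VZ and lMZ (−0.70, adjusted p = 0.198) did not pass.

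Sema6b, a transmembrane ligand of plexin A proteins, ran the other way. It measured 4.61, 15.8 and 5.02 FPKM in VZ, 15.6, 13.2 and 10.2 FPKM in mMZ, and 27.1, 36.1 and 29.8 FPKM in lMZ. All lMZ libraries were above all others, and VZ library 2 lay just above the mMZ libraries. Sema6b was lower in VZ than in lMZ by −1.94 ± 0.39 (SE; limma, adjusted p = 0.0106). The other class 6 genes did not pass. Sema6a, which binds plexin A2 and plexin A4, had 17.4, 15.9 and 15.8 FPKM in VZ, 19.9, 17.0 and 20.7 FPKM in mMZ, and 13.6, 7.50 and 17.2 FPKM in lMZ. Sema6d, a ligand of plexin A1, was listed at 8.79, 13.7 and 0 FPKM in VZ, 9.84, 9.04 and 2.04 FPKM in mMZ, and 10.4, 10.1 and 7.74 FPKM in lMZ. The low values of Sema6d were those of the 2 shallow libraries, and its difference between VZ and lMZ was −0.98 with all libraries and 0.21 without VZ library 3.

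All 6 class 4 semaphorins, membrane-bound ligands many of which act through plexin B proteins, had a negative difference between VZ and lMZ with all libraries, and 1 of them, Sema4f, passed. Without the shallow VZ library 3 the sign turned for Sema4c (0.21) and Sema4b (0.01), and 4 of 6 stayed negative. Sema4f was listed at 2.39, 6.84 and 0 FPKM in VZ, 6.60, 6.41 and 2.66 FPKM in mMZ, and 13.0, 10.6 and 12.2 FPKM in lMZ. The lMZ libraries lay above all others. Its difference was −2.11 ± 0.64 (SE; limma, adjusted p = 0.0454), and this call was lost on leaving out any 1 of 7 libraries (adjusted p up to 0.129). Without VZ library 3, where it was listed at 0, the difference was −1.32.

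Sema4a showed a larger difference that did not pass. It was listed at 16.5, 35.5 and 0 FPKM in VZ, 30.6, 43.8 and 25.8 FPKM in mMZ, and 40.8, 47.6 and 48.5 FPKM in lMZ. The 0 in VZ library 3 stands against at least 16.5 FPKM in every other library, although 1 fragment on its longest transcript would give about 1.19 FPKM there. The difference between VZ and lMZ was −2.43 (95% confidence interval −4.76 to −0.10; adjusted p = 0.126) with all libraries and −0.88 (adjusted p = 0.0890) without VZ library 3. Sema4d, a ligand of plexin B1, had 2.43, 4.57 and 1.69 FPKM in VZ, 7.06, 3.68 and 10.7 FPKM in mMZ, and 6.30, 10.1 and 7.38 FPKM in lMZ, with no overlap between VZ and lMZ (difference −1.24, adjusted p = 0.0562).

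The remaining class 4 genes were among the more abundant ligands. Sema4g had 38.9, 51.03 and 13.0 FPKM in VZ, 48.0, 46.8 and 29.2 FPKM in mMZ, and 56.5, 64.1 and 59.6 FPKM in lMZ. Its lMZ libraries were above the other 6. Sema4c, a ligand of plexin B2, had 47.0, 49.3 and 24.8 FPKM in VZ, 43.7, 49.8 and 32.8 FPKM in mMZ, and 41.2, 43.3 and 40.2 FPKM in lMZ. Sema4b had 10.3, 12.4 and 4.91 FPKM in VZ, 12.4, 14.4 and 8.10 FPKM in mMZ, and 11.4, 10.5 and 11.7 FPKM in lMZ. Zones overlapped for both genes, with the lowest values of VZ and mMZ in the shallow libraries. The differences between VZ and lMZ were −0.99 for Sema4g (adjusted p = 0.125), −0.10 for Sema4c (95% confidence interval −0.69 to 0.49) and −0.34 for Sema4b (−1.08 to 0.40).

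Among the secreted class 3 semaphorins 1 of 5 tested passed. Sema3a, the classical growth cone collapsing ligand of neuropilin 1, was listed at 0.764, 1.04 and 0 FPKM in VZ, 0.996, 0.686 and 1.78 FPKM in mMZ, and 3.45, 2.46 and 2.15 FPKM in lMZ. Every lMZ library exceeded the other 6, at a low level throughout. Sema3a was lower in VZ than in lMZ by −1.25 ± 0.36 (SE; limma, adjusted p = 0.0395), and leaving out any 1 of 7 libraries ended the call (adjusted p up to 0.142). Sema3f, a ligand of neuropilin 2 and the most abundant class 3 gene, had 9.40, 21.6 and 2.22 FPKM in VZ, 9.73, 10.2 and 7.005 FPKM in mMZ, and 13.1, 26.3 and 11.95 FPKM in lMZ, with a difference of −0.90 between VZ and lMZ that did not pass. Its highest value in each of the 3 zones was in library 2. Sema3b and Sema3c had the opposite sign: Sema3b spanned 1.01 to 3.76 FPKM in VZ, 0 to 1.96 FPKM in mMZ and 0.0985 to 0.306 FPKM in lMZ (difference between VZ and lMZ 1.41, adjusted p = 0.0603), and Sema3c spanned 2.54 to 3.41 FPKM in VZ, 1.79 to 5.30 FPKM in mMZ and 1.08 to 1.55 FPKM in lMZ (0.78, adjusted p = 0.132). Sema3g spanned 0 to 1.66 FPKM over all libraries.

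Sema7a, the only class 7 member, is anchored by a lipid and binds plexin C1 and integrins. It measured 4.28, 8.26 and 2.29 FPKM in VZ, 9.34, 6.88 and 3.33 FPKM in mMZ, and 10.6, 11.6 and 7.63 FPKM in lMZ. VZ and lMZ overlapped through VZ library 2, and the difference between them was −0.99 (95% confidence interval −1.97 to −0.02; adjusted p = 0.133). Its receptor Plxnc1 was listed at 8.34, 12.2 and 7.81 FPKM in VZ, 18.5, 18.3 and 27.8 FPKM in mMZ, and 59.7, 18.1 and 42.0 FPKM in lMZ. Every VZ library lay below every library of the other zones, and lMZ library 2 lay just below the lowest mMZ library. Plxnc1 was lower in VZ than in lMZ by −1.84 ± 0.39 (SE; limma, adjusted p = 0.0132). Leaving out lMZ library 1 or lMZ library 3 ended the call (adjusted p up to 0.0543).

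Plxna4, a plexin A that serves Sema3a with neuropilin 1 and also binds class 6 semaphorins, was lower in VZ as well. It measured 3.003, 5.09 and 2.27 FPKM in VZ, 5.53, 5.92 and 5.35 FPKM in mMZ, and 6.18, 13.0 and 10.05 FPKM in lMZ. The zones did not overlap in any of the 3 comparisons. The difference between VZ and lMZ was −1.26 ± 0.33 (SE; limma, adjusted p = 0.0271), and the call was lost without VZ library 1, lMZ library 2 or lMZ library 3 (adjusted p up to 0.113). The other plexin A genes did not pass. Plxna1, a co-receptor of neuropilins and a receptor for Sema6d, had 52.7, 63.8 and 47.1 FPKM in VZ, 76.5, 82.3 and 109 FPKM in mMZ, and 59.7, 57.2 and 81.3 FPKM in lMZ. Plxna2 had 4.94, 7.93 and 15.5 FPKM in VZ, 9.74, 8.63 and 11.8 FPKM in mMZ, and 11.8, 10.1 and 7.48 FPKM in lMZ. Plxna1 had its highest zone mean in mMZ, while the zones of Plxna2 overlapped throughout, with its highest and lowest values both in VZ.

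The plexin B receptors pointed the other way from Plxna4 and Plxnc1. Plxnb1, the receptor for Sema4d, measured 111, 84.5 and 107 FPKM in VZ, 89.2, 99.4 and 69.6 FPKM in mMZ, and 59.1, 54.6 and 72.3 FPKM in lMZ. All VZ libraries were above all lMZ libraries. Its difference was 0.69 ± 0.19 (SE; limma, adjusted p = 0.0304). That call was lost without VZ library 1, VZ library 3, mMZ library 1, lMZ library 1 or lMZ library 2 (adjusted p up to 0.114), and also with trimmed mean scaling or no intensity trend. Plxnb2, which keeps progenitors dividing in other brain regions of the mouse, had 80.9, 66.7 and 70.3 FPKM in VZ, 77.4, 77.6 and 54.6 FPKM in mMZ, and 50.8, 54.2 and 58.4 FPKM in lMZ. VZ and lMZ did not overlap, and the difference of 0.41 (95% confidence interval 0.02 to 0.79; adjusted p = 0.123) did not pass.

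Neither neuropilin passed. Nrp1, the receptor of Sema3a and of a vascular growth factor, had 6.54, 12.6 and 4.37 FPKM in VZ, 9.91, 10.4 and 7.88 FPKM in mMZ, and 10.6, 7.64 and 15.6 FPKM in lMZ. Nrp2, the receptor of Sema3f and Sema3c, had 25.9, 30.6 and 36.1 FPKM in VZ, 24.2, 26.8 and 44.1 FPKM in mMZ, and 17.98, 11.5 and 36.9 FPKM in lMZ. The zones overlapped for both. Differences between VZ and lMZ were −0.53 for Nrp1 (95% confidence interval −1.36 to 0.30) and 0.61 for Nrp2 (−0.25 to 1.46), so a change of 1 on the log2 scale lies inside both intervals.

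Plxnd1, the receptor of Sema3e on vessels, was listed at 3.68, 7.22 and 0 FPKM in VZ, 8.25, 5.39 and 3.34 FPKM in mMZ, and 9.58, 3.28 and 6.61 FPKM in lMZ, and passed in no comparison. Inside VZ and mMZ its libraries ranked as they did for vessel markers, whereas in lMZ only the lowest library was shared. The summed level of 10 endothelial markers was 28.2, 68.9 and 10.9 FPKM in VZ, 83.6, 55.6 and 30.1 FPKM in mMZ, and 54.8, 20.2 and 57.4 FPKM in lMZ. The lowest library of each zone was the same for Plxnd1 and for the markers, and VZ library 3 listed 7 of the 10 markers at 0. In VZ and mMZ that lowest library was the shallow library 3, so depth may enter the match. In lMZ the highest was library 1 for Plxnd1 and library 3 for the markers. What vessel content contributes to Plxnd1 was not tested.

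**Figure D3:**
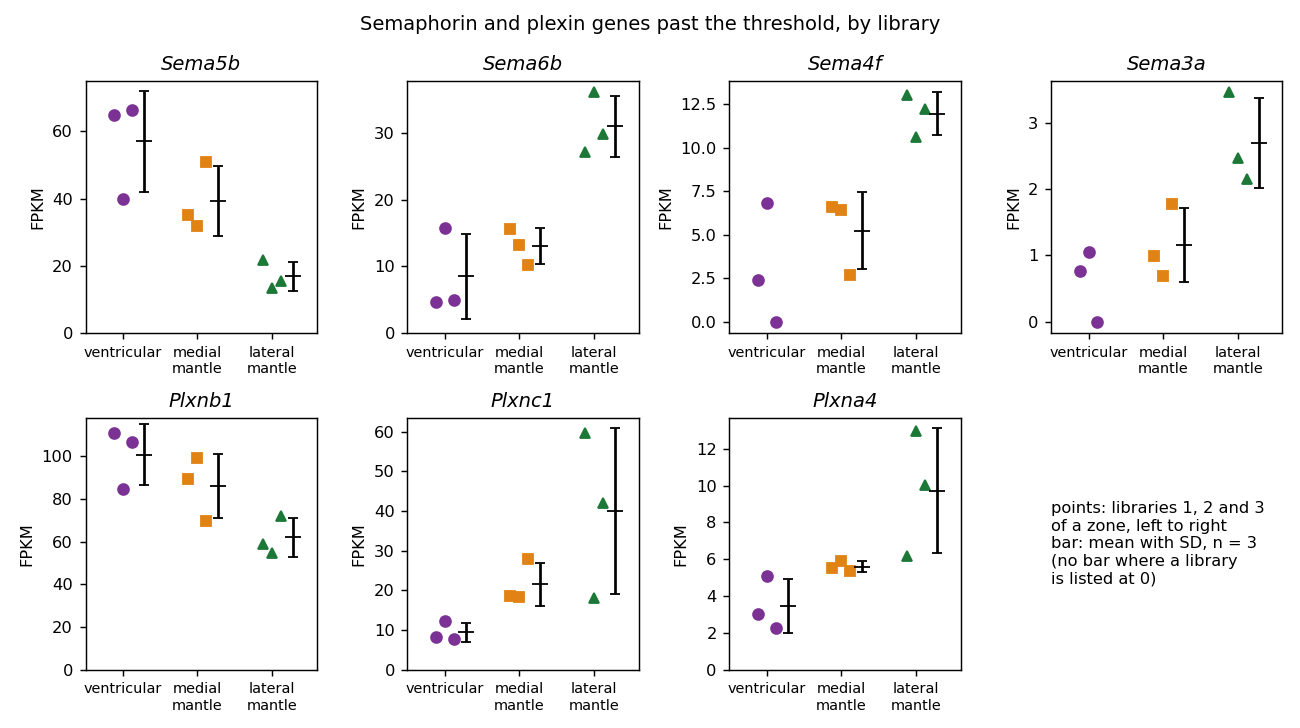
FPKM of the 7 members that passed the test between the ventricular and the lateral mantle zone, by library. Points are libraries 1, 2 and 3 of a zone from left to right, and bars are means with SD (n = 3) in zones with no library listed at 0. Sema5b and Plxnb1 are highest in the ventricular zone, and the other 5 are highest in the lateral mantle zone.

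These 7 genes were picked for differing between VZ and lMZ, as the zone markers do, so a shared direction across zones followed from that choice. By zone mean, Sema5b and Plxnb1 were highest where radial glia markers were highest. Sema6b, Sema4f, Sema3a, Plxnc1 and Plxna4 were highest where neuronal markers were highest. VZ library 2, with the highest neuronal sum of its zone (1151 FPKM, against 603 and 533 FPKM in VZ libraries 1 and 3), also had the lowest Sema5b and Plxnb1 and the highest Sema6b, Sema4f, Sema3a, Plxnc1 and Plxna4 of VZ. That library was also the deepest. It had the highest endothelial sum (68.9 FPKM) and microglia and macrophage sum (27.3 FPKM) of VZ as well. The match was thus not particular to neuronal markers, and what depth contributes to it was not tested. Libraries of the other zones did not all keep this match. Plxnb1 was highest of mMZ in library 2 (99.4 FPKM), which had the lowest radial glia sum there (899 FPKM). Plxnc1 was lowest of lMZ in library 2 (18.1 FPKM), whereas the neuronal sum was lowest in lMZ library 3 (1482 FPKM). Markers of microglia and macrophages moved in the same direction as the lMZ genes, with summed levels of 12.2 to 27.3 FPKM in VZ, 13.3 to 31.0 FPKM in mMZ and 40.5 to 54.0 FPKM in lMZ over 10 genes, of which VZ library 3 listed 7 at 0. Sums of other markers moved in the direction of Sema5b and Plxnb1, but within most of these lists single genes were split. The difference between VZ and lMZ was positive for all 6 tested red cell markers. It was positive for 3 of 6 pericyte markers, 2 of 6 meningeal and mesenchymal markers, and 2 of 4 oligodendrocyte precursor markers, and negative for the others tested. Red cell markers summed to 2289 to 2655 FPKM in VZ, 1608 to 3000.2 FPKM in mMZ and 318 to 692 FPKM in lMZ. Pericyte markers summed to 38.2 to 53.6 FPKM in VZ, 25.8 to 36.5 FPKM in mMZ and 6.17 to 13.2 FPKM in lMZ. Meningeal and mesenchymal markers summed to 16.3 to 32.1 FPKM in VZ, 26.6 to 32.5 FPKM in mMZ and 3.60 to 9.41 FPKM in lMZ. Oligodendrocyte precursor markers summed to 47.1 to 62.5 FPKM in VZ, 9.31 to 26.8 FPKM in mMZ and 3.14 to 8.22 FPKM in lMZ. In VZ library 3 the genes listed at 0 were 1 of 7 red cell markers, 4 of 7 pericyte markers, 6 of 10 meningeal and mesenchymal markers, and Sox10 and Cspg4 of the 5 precursor markers. The share of each cell type in the 7 differences was not tested.

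The DNA just upstream of 3 of the genes lower in VZ is shown to let their promoters be compared. Sema4f, Plxnc1 and Sema6b were taken because their RefSeq start lies within 10 bases of the GENCODE 5′ end and their differences are the largest among the 5. The windows are the 250 bases before the start, on the minus strand of GRCm38.p6, at chr6:82939770-82940019 for Sema4f, chr10:94944846-94945095 for Plxnc1 and chr17:56140344-56140593 for Sema6b. Capitals mark GC boxes (GGGCGG, or CCGCCC on the other strand) and E-boxes (CANNTG).
Sema4f: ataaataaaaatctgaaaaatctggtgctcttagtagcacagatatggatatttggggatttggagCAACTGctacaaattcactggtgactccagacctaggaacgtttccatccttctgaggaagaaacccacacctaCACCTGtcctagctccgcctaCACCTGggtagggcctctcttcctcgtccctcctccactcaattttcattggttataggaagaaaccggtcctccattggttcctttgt
Plxnc1: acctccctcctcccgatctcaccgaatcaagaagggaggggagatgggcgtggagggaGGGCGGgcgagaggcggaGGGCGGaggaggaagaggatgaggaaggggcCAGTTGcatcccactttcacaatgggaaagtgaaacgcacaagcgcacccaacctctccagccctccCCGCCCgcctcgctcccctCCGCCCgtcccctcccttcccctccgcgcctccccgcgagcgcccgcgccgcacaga
Sema6b: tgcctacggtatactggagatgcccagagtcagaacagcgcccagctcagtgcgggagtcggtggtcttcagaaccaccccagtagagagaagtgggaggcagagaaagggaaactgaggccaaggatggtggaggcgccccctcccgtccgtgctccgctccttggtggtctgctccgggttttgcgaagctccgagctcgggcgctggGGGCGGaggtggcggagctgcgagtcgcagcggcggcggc
The Sema4f window had 46% G and C, with 3 E-boxes and no GC box. Plxnc1 had 68.8% G and C, 4 GC boxes and 1 E-box, and Sema6b had 66% G and C, 1 GC box and no E-box. No GC box overlapped an E-box in these windows. Genes with the same direction between zones thus had upstream sequences of different make-up.

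Across the family 26 of 31 genes had 37 such RefSeq windows, some genes having several starts. Their median content of G and C was 64%, against 52.4% over 32851 mouse windows of the same length. At least 1 GC box stood in 27 of the 37 member windows (73.0%), against 32.7% of all windows. E-boxes stood in 19 (51.4%, against 66.2% of all windows) and the N-box CACNAG in 20 (54.1%, against 36.7%), each read on both strands, and overlap between E-boxes and N-boxes was allowed. The TATA box TATAAA was in none of the 37, against 12.4% of all windows. A match is a description of these letters and not of binding, and windows of 1 gene can overlap.

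The comparison of VZ with mMZ sets the progenitor layer against the tissue next to it. No member passed, and neither did any of the 14004 genes (0% of genes; limma). The 9 radial glia, 6 dividing cell and 8 neuronal markers were among those that did not pass. At this threshold the comparison thus did not separate the zones by their own markers. Unadjusted p-values were under 0.05 for 3 members, Plxna1, Plxnc1 and Sema4d, and for 1661 genes. The widest difference among members was that of Sema4a (−1.96, 95% confidence interval −4.30 to 0.37), which has its listed 0 in VZ library 3. The family's median difference was −0.34, with 23 of 28 members negative, and that of all genes was −0.05. Without VZ library 3 the family's median was −0.03, with 17 of 28 negative, and that of all genes −0.07. In 3 receptors every VZ library lay below every mMZ library, where 9.3% of all genes did so: Plxna1 (difference −0.70, adjusted p = 0.389), Plxna4 (−0.62, adjusted p = 0.468) and Plxnc1 (−1.11, adjusted p = 0.393). No tested member was higher in VZ without overlap, where 5.36% of all genes were. With array weights, which give the noisier libraries less weight, 7 members and 2761 genes (19.7%) passed.

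The comparison of mMZ with lMZ sets the 2 parts of the mantle side by side. Sema5b was higher in mMZ by 1.17 ± 0.27 (SE; limma, adjusted p = 0.0443) and was the only one of 28 members to pass, where 4.12% of all genes passed, 3.58% as higher and 0.543% as lower in mMZ. That call held on leaving out VZ library 2 or VZ library 3 but on leaving out no other library (adjusted p up to 0.189). Over all genes 501 were higher and 76 lower in mMZ, and with quantile normalization 527 and 264. Sema6b was next among the members, at −1.20 ± 0.39 (SE; adjusted p = 0.125). The mMZ and lMZ libraries did not overlap for 2 members higher in mMZ, Sema5b and Sema3c, and for 7 lower, where 25.7% and 14.8% of all genes did so. The 7 were Sema3a, Sema3f, Sema4f, Sema4g, Sema6b, Sema6c and Plxna4. The family's median was −0.17, beside 0.10 for all genes, and without the 2 shallow libraries it was −0.03, with 14 of 28 members negative.

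Ligands and receptors were then summed library by library. The semaphorin sum was 353, 411 and 202 FPKM in VZ, 397, 387 and 282 FPKM in mMZ, and 429.7, 449.9 and 439 FPKM in lMZ. The receptor sum was 439, 430.4 and 338 FPKM in VZ, 438, 486 and 425 FPKM in mMZ, and 392, 371 and 474 FPKM in lMZ. In deposited FPKM, semaphorin sums were higher in every lMZ library than elsewhere, whereas receptor sums overlapped. The summed FPKM of all genes also differed between libraries, and as a share of it, an alternative chosen after seeing the data, semaphorins made up 0.0421% to 0.0927% in VZ, 0.0597% to 0.0882% in mMZ and 0.0820% to 0.0970% in lMZ. On that scale the zones overlapped. Whether zones overlap for a single gene was read throughout from deposited FPKM and not from such shares. The whole family made up 0.167% ± 0.047 in VZ, 0.174% ± 0.021 in mMZ and 0.170% ± 0.028 in lMZ (SD, n = 3 each). The ratio of ligands to receptors was 0.805, 0.954 and 0.598 in VZ, 0.906, 0.797 and 0.664 in mMZ, and 1.10, 1.21 and 0.926 in lMZ. The lMZ libraries were above all mMZ libraries, and lMZ library 3 fell just below VZ library 2. On the log2 scale the ratio averaged −0.37 ± 0.34 in VZ, −0.35 ± 0.22 in mMZ and 0.10 ± 0.20 in lMZ (SD, n = 3 each). The shallow libraries had the lowest ratio of their zone. No test was made of this score, and with the mean of log2 values in place of sums the difference between VZ and lMZ was −0.18 instead of −0.47.

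By class, the FPKM sums of classes 4, 5 and 6 set lMZ apart from both other zones, and those of class 3 semaphorins, type A plexins and neuropilins did not. As shares of the summed FPKM of all genes only class 5 of these 3 still set lMZ apart, with 0.00948% to 0.0165% in VZ, 0.00714% to 0.0116% in mMZ and 0.00289% to 0.00471% in lMZ. Class 4 was then 0.00926% to 0.0360% in VZ, 0.0231% to 0.0353% in mMZ and 0.0323% to 0.0396% in lMZ, and class 6 was 0.0166% to 0.0388% in VZ, 0.0211% to 0.0412% in mMZ and 0.0375% to 0.0480% in lMZ. Class 4 summed to 44.5 to 159.6 FPKM in VZ, 109 to 165 FPKM in mMZ and 169 to 186 FPKM in lMZ. Class 6 summed to 79.6 to 172 FPKM in VZ, 99.9 to 185 FPKM in mMZ and 205 to 217 FPKM in lMZ. Class 5, carried by Sema5b, had the reverse order, with 42.0 to 67.2 FPKM in VZ, 33.4 to 54.8 FPKM in mMZ and 15.8 to 24.6 FPKM in lMZ. Type B plexins summed to 151 to 192 FPKM in VZ, 124 to 177 FPKM in mMZ and 109 to 131 FPKM in lMZ. Type A plexins spanned 113 to 216 FPKM in VZ, 211 to 248 FPKM in mMZ and 185 to 243 FPKM in lMZ. The VZ minima of classes 4 and 6 and of type A came from the shallow VZ library 3.

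**Figure D4:**
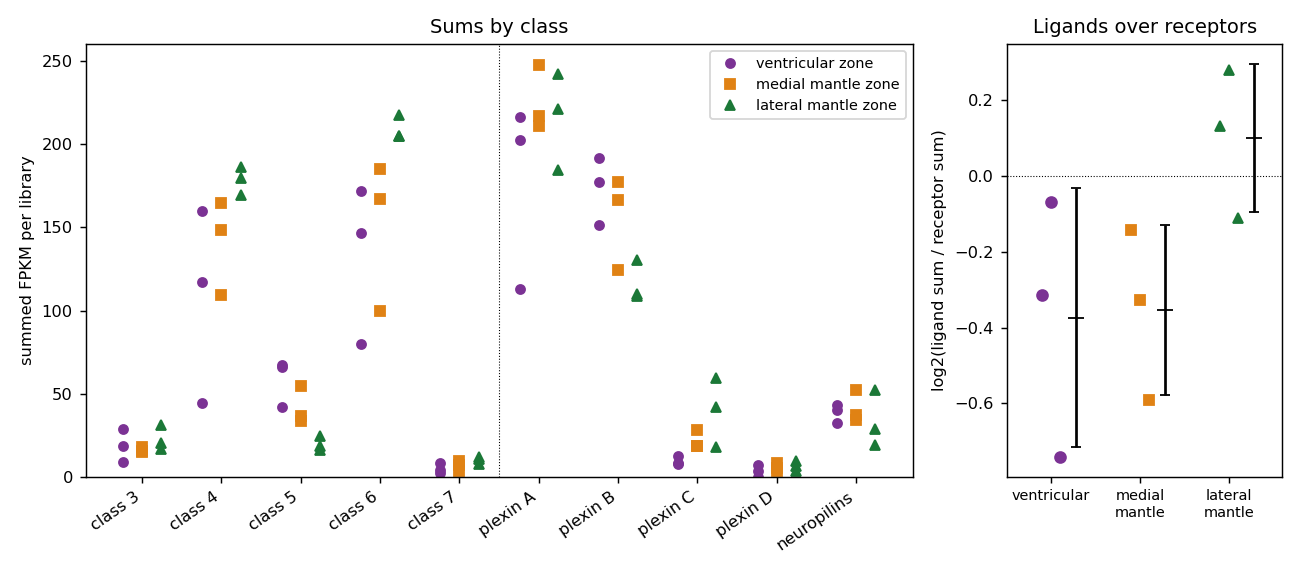
Left, summed FPKM of each semaphorin class, plexin type and the neuropilins in each library, coloured by zone. Right, log2 of the summed semaphorin level over the summed plexin and neuropilin level in each library, with mean and SD (n = 3 libraries a zone). In these unscaled sums classes 4 and 6 are highest in the 3 lateral mantle libraries (they overlap as shares of all genes), class 5 is lowest there, and the ratio averages 0.10 in the lateral mantle zone.

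Known partners did not share 1 pattern. Sema7a and Plxnc1 both had their highest zone mean in lMZ: Sema7a averaged 4.94 FPKM in VZ, 6.52 FPKM in mMZ and 9.97 FPKM in lMZ, and Plxnc1 averaged 9.44 FPKM in VZ, 21.6 FPKM in mMZ and 39.9 FPKM in lMZ. Within VZ both were highest in library 2. Within lMZ, however, library 2 had the highest Sema7a (11.6 FPKM) and the lowest Plxnc1 (18.1 FPKM). Sema4d and its receptor Plxnb1 ran in opposite order, with 2.90 FPKM in VZ, 7.13 FPKM in mMZ and 7.91 FPKM in lMZ for the ligand and 100.8 FPKM in VZ, 86.1 FPKM in mMZ and 62.0 FPKM in lMZ for the receptor. For Sema4c and Plxnb2 the ligand averaged 40.4 FPKM in VZ, 42.1 FPKM in mMZ and 41.6 FPKM in lMZ, and the receptor 72.6 FPKM in VZ, 69.9 FPKM in mMZ and 54.5 FPKM in lMZ. For Sema5b and Plxna3 the ligand averaged 57.1 FPKM in VZ, 39.3 FPKM in mMZ and 16.9 FPKM in lMZ, and the receptor 109.8 FPKM in VZ, 120.3 FPKM in mMZ and 131 FPKM in lMZ. The order of Plxna3 rests on VZ library 3: the other VZ libraries averaged 141 FPKM, above lMZ, and without library 3 the difference between VZ and lMZ was 0.12. For the 4 class 3 pairs and the pairs of Sema5a, Sema6a and Sema6d the values are those of the single genes above. No test compares a ligand's pattern with that of its receptor.

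Co-receptors and intracellular effectors of semaphorin signalling show how far the rest of the pathway differed. Of 21 co-receptor genes 20 were tested, and between VZ and lMZ 5 were higher and 7 lower in VZ. Of 36 effector genes 35 were tested, and 3 were higher and 6 lower in VZ. These counts stand beside 10.7% of all genes higher and 8.93% lower in VZ. Median differences were −0.27 for both lists, beside 0.05 for all genes. Both list medians include the shallow VZ library 3, and neither was computed without it. The list members lower in VZ included the adhesion molecules L1cam, Nrcam and Chl1, which act beside neuropilins, and the collapsin response mediator genes Crmp1 and Dpysl3. Those higher in VZ included another adhesion molecule, Cntn2 (1.32, adjusted p = 0.0130), the integrin gene Itgb1 (0.83, adjusted p = 0.0412) and the proteoglycan gene Sdc1 (1.17, adjusted p = 0.0180). Within VZ, L1cam, Nrcam, Chl1, Crmp1, Dpysl3 and Cntn2 were lowest in library 3, and Itgb1 and Sdc1 were highest there. The genes lower in VZ also included Trem2, a microglial receptor, and Cd72, an immune cell receptor, which are not neural co-receptors.

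Chl1 measured 3.63, 17.9 and 0.472 FPKM in VZ, 17.1, 20.2 and 22.5 FPKM in mMZ, and 55.8, 49.9 and 47.1 FPKM in lMZ, a difference of −3.36 ± 0.71 between VZ and lMZ (SE; limma, adjusted p = 0.0130). Rnd3, of a group of small GTPases whose members bind plexins, measured 109, 79.2 and 188 FPKM in VZ, 116, 76.4 and 147 FPKM in mMZ, and 18.2, 11.7 and 20.6 FPKM in lMZ. It was higher in VZ than in lMZ by 2.77 ± 0.35 (SE; adjusted p = 0.00147) and higher in mMZ than in lMZ by 2.66 ± 0.35 (SE; adjusted p = 0.00417). Erbb2, a receptor kinase that joins plexin B1, measured 8.76, 4.38 and 5.88 FPKM in VZ, 4.26, 4.20 and 3.27 FPKM in mMZ, and 0.162, 0.188 and 0.246 FPKM in lMZ. It was higher in VZ than in lMZ by 2.57 ± 0.30 (SE; adjusted p = 0.000967). For these 3 genes no VZ library overlapped an lMZ library.

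Ptprz1, a receptor phosphatase of radial glia, measured 59.3, 32.4 and 68.9 FPKM in VZ, 35.1, 36.2 and 49.1 FPKM in mMZ, and 7.72, 8.36 and 8.42 FPKM in lMZ, and was higher in mMZ than in lMZ by 2.15 ± 0.27 (SE; limma, adjusted p = 0.00349). Between mMZ and lMZ 4 of 55 tested partner genes passed, all higher in mMZ, where 3.58% of all genes passed as higher and 0.543% as lower: Ptprz1, Rnd3, Erbb2 and Mical1, which encodes an enzyme that oxidises actin. None of the 55 tested partners passed between VZ and mMZ. Abundant partners also passed in no comparison. The proteoglycan gene Gpc1 ranged from 66.9 to 95.1 FPKM and the integrin gene Itga6 from 8.43 to 41.3 FPKM over the 9 libraries. The actin severing factor gene Cfl1 ranged from 478 to 729.5 FPKM, and Dpysl5 of the collapsin response mediator family from 118 to 219.9 FPKM.

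The 31 genes lie on 17 chromosomes, and a few are neighbours. Sema3d, Sema3a, Sema3e and Sema3c lie in that order within chr5:12383385-17730268 (GRCm38), with 536 and 423 kb between the first 3 genes and 3.32 Mb before Sema3c. Their levels differed: Sema3a was lower in VZ than in lMZ, Sema3c had its lowest values in lMZ, and Sema3d and Sema3e were under the limit for testing. Sema3b and Sema3f lie 72.3 kb apart on chromosome 9, and their differences between VZ and lMZ had opposite signs (1.41 and −0.90). Plxnb3 and Plxna3 lie 557 kb apart on chromosome X, and their levels over the 9 libraries were 0 to 0.1502 FPKM and 47.9 to 151 FPKM.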

How the data were processed

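RNA was measured in 9 libraries, 3 for each of 3 zones. The table deposited by the authors holds FPKM (fragments per kilobase, scaled to mapped fragments). Bowtie2 2.1.0 and the mm10 build are named in the submitters' processing notes. How FPKM was estimated is not given in the sources. Of 38370 rows, 42 exact copies were dropped, and where a symbol recurred only its row with the highest mean was kept, which dropped 133 more. Gene spans come from GENCODE release M21 on GRCm38 (mm10), matched by symbol for 34293 of 38195 symbols. Depth was estimated from the size of the smallest steps among low values, and this gives relative depth only.

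The test scale was log2(FPKM + 1), on which changes of low genes come out too small. A gene was tested if 3 or more libraries reached 1 FPKM, which 14004 genes did. All 9 libraries entered 1 linear model with a mean for each zone (limma 3.58.1, R 4.3.3), with an intensity trend and two-sided p-values adjusted by the Benjamini-Hochberg method over all genes tested (threshold 0.05). The fit was run on simulated libraries with known changes. Each gene had the same spread in all 9 simulated libraries and none was shallow, so that run does not cover the unequal depth here. The replicate numbers carry no stated pairing, so no block was used. Alternatives covered the pseudocount, the filter, the scaling, the trend, array weights, a replicate block, the zones fitted and leaving out libraries. Sums as shares of the summed FPKM of all genes were added after seeing the data.

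The members, the partner lists, the marker lists and the naming rule were chosen with earlier results of these data known. Library values are printed for members past the threshold in any comparison or with a mean of at least 5 FPKM. Of the partner lists, up to 3 genes that passed per comparison and 2 per list that passed in none are named, and any other gene named was chosen after its values were seen. Promoter sequences are RefSeq's, on GRCm38.p6.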

Additional observations from a re-analysis of the deposited data

How the results depend on the processing

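Counts of members past the threshold depended most on the weighting of libraries and on single libraries. Between VZ and lMZ, where 7 members passed, 17 passed with array weights (48.6% of all genes passed), 4 with no filter on low values (9.12%) and 4 with only the 2 zones compared in the fit (1684 genes). Leaving out 1 library at a time gave 3 to 13: 13 without VZ library 2 (28.3% of all genes), 4 without VZ library 3 (17.2%) or mMZ library 1 (15.0%), and 3 without VZ library 1 (8.56%) or any 1 of the lMZ libraries (6.85% to 8.93%). Sema5b and Sema6b passed between VZ and lMZ in all 20 alternatives, Plxnc1 in 18, Plxna4 in 15, Plxnb1 in 13, Sema4f in 8 and Sema3a in 7 of 19, and none of these differences changed sign. Between VZ and mMZ 7 passed with array weights in place of 0 (19.7% of all genes), and leaving out libraries gave 0 to 1, the 1 being Sema6b without VZ library 2 (4.08% of all genes). Between mMZ and lMZ, in place of 1, the count was 0 with no filter, trimmed mean scaling or no intensity trend, 8 with array weights (26.4% of all genes), and 3 without the 2 shallow libraries (11.9%) or with only the 2 zones (14.5%). Leaving out 1 library gave 0 to 2 there. Quantile normalization and trimmed mean scaling took the median difference of all genes between mMZ and lMZ to −0.01 each, where it was 0.10.

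With the mean of log2 values in place of sums, the difference in ligand to receptor balance was −0.18 between VZ and lMZ (−0.47 from sums) and −0.21 between mMZ and lMZ (−0.45 from sums), and the cause was not tested. Between VZ and mMZ it was −0.02 from sums and 0.16 without VZ library 3. The difference of −0.47 between VZ and lMZ also rests in part on that library. Log2 ratios from sums were −0.31, −0.07 and −0.74 in VZ libraries 1, 2 and 3, so leaving out library 3 makes it smaller in size.

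A fit with the replicate number as a block called 0 members between VZ and mMZ, 6 between VZ and lMZ and 1 between mMZ and lMZ. Of 9 same-numbered pairs, 4 had deviations correlated above 0.1 (r from −0.10 to 0.25). A library correlated best with its own number in 11 of 18 comparisons with another zone, each with 3 candidate libraries. That is more often than an even draw among the 3 would give on average, so this check does not exclude pairing. The numbers were not taken as pairs because no label states a pairing. Depth limits VZ library 3 and mMZ library 3, where low members can be listed at 0. Listed zeros there were not confined to low genes. In VZ library 3, 27 genes were at 0 while every other library had at least 10 FPKM, and in mMZ library 3, 15 genes were. Sema4a was at 0 in VZ library 3 in this way. The cause of these zeros was not tested.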
